A study of Sus scrofa with 35 samples.

Results

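The 3 engineered lines of pig expanded potential stem cells (pEPSCs) were compared as a set with wild-type pEPSCs. The set holds 12 bulk RNA-seq libraries of the 35 samples of the series: 3 wild type, 3 with OTX2 overexpression (OTX2_OE-1 to -3), 3 of an OTX2 knockout (OTX2-KO1-1, -3 and -4) and 3 with LEUTX overexpression (OE_LEUTX-1 to -3). A gene was called shared when all 9 engineered libraries lay on one side of all 3 wild-type libraries. Of 11954 nuclear genes listed in all 3 deposited pEPSC tables, 967 (8.09%) were above wild type in all 9 libraries and 1351 (11.3%) were below, 2318 in all. Shared genes thus made up a minority in either direction. Lower genes outnumbered higher ones by less without the library OTX2-KO1-1 (1478 higher and 1530 lower) and with median-ratio scaling (1211 and 1268). Without the whole knockout line the order turned, at 2895 higher and 2294 lower.

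OTX2 and LEUTX are homeobox transcription factors of the PRD-like class. OTX2 is known for its role in the passage of pluripotent cells from the naive to the primed state and in forebrain formation, and LEUTX is known in human embryos as a factor active around the onset of embryonic transcription. Expanded potential stem cells are cultured pluripotent cells that can contribute to embryonic and extraembryonic lineages. An engineered line differs from its parent in the edited gene and also in the history of transfection, selection and passage.

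The groups were named from the sample titles, and the study's purpose in its design text is to profile gene expression in pEPSCs under these conditions. The labels do not give the strain, the vector or promoter of either overexpression, the edit made in OTX2, or whether the 3 libraries of a group are separate cultures or clones. The knockout columns share the prefix OTX2-KO1, and their numbers 1, 3 and 4 differ from the titles, which run from 1 to 3. All p-values below therefore measure the spread between these libraries, which may be technical.

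The wild-type values were the same in the 3 tables, so the 3 comparisons share their controls. A level peculiar to the 3 wild-type libraries and a level acquired by every engineered line give the same pattern, and the 2 cannot be told apart here. In bulk RNA, fewer cells of a type and less RNA per cell cannot be told apart either. Levels are in TPM, a transcript abundance corrected for length and library total, rescaled so that nuclear genes sum to the same total in each library, and shifts are differences of group means of log2(TPM + 1), on which 1 is a 2-fold difference except at low levels. Values of 3 libraries are given in the order of the names above.

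Deposited OTX2 levels were above wild type in OTX2_OE and below it in OTX2-KO1, where OTX2 RNA was still present. RNA levels do not show whether the protein was lost in the knockout. OTX2 stood at 258, 252 and 260.4 TPM in wild type, 9758, 8974 and 10819 in OTX2_OE, and 99.5, 130.1 and 114 in OTX2-KO1. In OE_LEUTX it stood at 0.131, 0.294 and 0.209 TPM, so wild type lay between the lines and OTX2 was not a shared gene. LEUTX was listed in the LEUTX table alone, at 0 in the 3 wild-type libraries and at 3171, 3187 and 3073 TPM in OE_LEUTX. All 7 pluripotent markers were listed, with a summed level of 6209 to 6656 TPM in wild type, 2687 to 2996 in OTX2_OE, 4696 to 7419 in OTX2-KO1 and 3696 to 3792 in OE_LEUTX. Of 8 fibroblast markers COL1A1, COL1A2 and THY1 were listed, summing to 10.6 to 13.8 TPM in wild type, 35.9 to 39.3 in OTX2_OE, 28.8 to 48.9 in OTX2-KO1 and 3.92 to 6.09 in OE_LEUTX. Of 6 hypoblast markers, FOXA2 and APOA1 were listed, at a summed 76.6 to 82.9 TPM in wild type, 161 to 179 in OTX2_OE, 31.3 to 59.1 in OTX2-KO1 and 44.3 to 50.5 in OE_LEUTX. None of 6 trophoblast and none of 4 blood and endothelial markers was listed in all 3 tables. None of these 3 marker sums placed all 9 engineered libraries on one side of wild type, and their part in the shared shift was not tested.

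The library OTX2-KO1-1 stood apart from its own group. In it, 647 genes were over 2-fold from the mean of the other knockout libraries, against 44 genes between those 2 libraries and 11 to 25 genes for any library of the other groups measured like OTX2-KO1-1. Mitochondrial genes held 22.4% of its TPM, against 10.2% and 10.3% in the other knockout libraries, 14.5% to 15.7% in wild type, 9.02% to 10.1% in OTX2_OE and 15.9% to 16.1% in OE_LEUTX. The part of mitochondrial share in the shared shift was not tested. Without OTX2-KO1-1 the shared genes made up 12.4% higher and 12.8% lower, a group that holds all 2318 by construction.

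Over all genes, the mean of the 3 lines was tested against wild type with limma and Benjamini-Hochberg adjustment over 11954 genes. At an adjusted p under 0.05, 3786 genes (31.7%) were higher and 3781 (31.6%) lower, and without OTX2-KO1-1 these counts were 4655 and 4341. The call rests on treating libraries as independent. When the libraries of a line were fitted as correlated (estimated correlation 0.900), 0 genes passed in either direction, 167 were higher and 147 lower at an unadjusted p under 0.05, and the lowest limma adjusted p was 0.556, for ABHD17B. With 3 lines, the data thus show a shift in these libraries and not one for engineered lines in general. Line by line, OTX2_OE had 4462 genes higher (37.3%) and 4357 lower (36.4%), OTX2-KO1 had 2657 (22.2%) and 4430 (37.1%), and OE_LEUTX had 4017 (33.6%) and 2537 (21.2%).

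Most shared genes moved by unequal amounts in the 3 lines. Differences among the lines were tested with an F-test, whose contrast leaves out wild type while the wild-type libraries enter its estimate of spread. The test passed for 10484 of all genes (87.7%). It passed for 795 (82.2%) of the higher and 1099 (81.3%) of the lower shared genes, shares that lie below that of all genes. The shared rule uses the same engineered libraries and leaves out genes whose lines lie on opposite sides of wild type. The median range among line means was 0.63 for the higher and 0.73 for the lower genes, beside 0.90 for all. The lower shares are thus partly set by the rule and are no result about the shared genes. For 295 of the higher and 298 of the lower genes the range among the 3 line means was smaller than the shift of the nearest line. Median shifts of the higher genes were 0.98 in OTX2_OE, 0.57 in OTX2-KO1 and 0.64 in OE_LEUTX, and those of the lower genes were -0.97, -0.65 and -0.38. OTX2_OE was the line farthest from wild type for 592 of the higher and 845 of the lower genes, while the nearest line was most often OTX2-KO1 for the higher genes (475) and OE_LEUTX for the lower genes (856). All 3 lines were at least 1 log2 unit from wild type for 60 higher and 39 lower genes, and without OTX2-KO1-1 for 67 and 36.

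The 24 leading genes were those whose nearest line lay farthest from wild type, 12 in each direction, among genes with a mean of at least 5 TPM in wild type or in every engineered line. Their values describe a choice made on the same libraries and carry no test against wild type. The higher genes included membrane proteins, trafficking proteins and enzymes.

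IER5, an immediate early response gene, read 3.67, 2.97 and 3.49 TPM in wild type, 48, 45.8 and 44.8 in OTX2_OE, 10.2, 16.2 and 22.5 in OTX2-KO1 and 41.1, 42 and 41.2 in OE_LEUTX. Its line shifts were 3.43, 1.92 and 3.28, with a mean of 2.88 ± 0.16 (SE, here and below). This SE treats libraries as independent and does not measure the spread among the lines. Every engineered library was above the wild-type range, with the knockout libraries nearest to it and more spread than the rest.

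PMP22, a myelin and epithelial membrane protein, read 2.48, 3.07 and 2.36 TPM in wild type, 31.3, 40.8 and 43 in OTX2_OE, 31, 32.6 and 33.3 in OTX2-KO1 and 11.8, 10.9 and 11.9 in OE_LEUTX. The lines were shifted by 3.43, 3.20 and 1.79, and OE_LEUTX lay apart from both OTX2 lines (adjusted p of the F-test among lines, 1.57e-07). EMP3, of the same membrane protein family, read 2.92, 2.97 and 3.47 TPM in wild type, 8.94, 9.61 and 12.4 in OTX2_OE, 14, 13.9 and 19.2 in OTX2-KO1 and 13.6, 13.5 and 9.11 in OE_LEUTX. Its shifts of 1.45, 2.01 and 1.65 were closer together, and no library of EMP3 reached the wild-type range.

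DHRS3 encodes a retinal reductase that limits retinoic acid formation. It read 5.72, 5.59 and 5.8 TPM in wild type, 65.9, 66.6 and 62.8 in OTX2_OE, 20.5, 21.3 and 19.8 in OTX2-KO1 and 31, 33.4 and 31.2 in OE_LEUTX. The groups formed 4 separate levels, wild type lowest and OTX2_OE highest, with shifts of 3.30, 1.68 and 2.29 and an F-test adjusted p of 5.61e-09 among the lines.

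AKIP1, which encodes a protein that binds the catalytic subunit of protein kinase A, read 14.4, 18.4 and 15.7 TPM in wild type, 69, 63.6 and 62.9 in OTX2_OE, 58.8, 54.8 and 53.8 in OTX2-KO1 and 55.9, 58 and 58.3 in OE_LEUTX. Its shifts of 1.95, 1.73 and 1.77 did not pass the F-test among lines (adjusted p = 0.0802), but passed it without OTX2-KO1-1 (adjusted p = 0.0270). MGMT, the methyltransferase that repairs O-6-alkylguanine in DNA, read 42.5, 41.4 and 47.1 TPM in wild type, 179, 173 and 138 in OTX2_OE, 121, 126 and 139 in OTX2-KO1 and 133, 136 and 141 in OE_LEUTX. Here too the 3 lines lay close together, at 1.87, 1.54 and 1.63, although they passed the F-test (adjusted p = 0.0159).

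FBLN5, fibulin 5 of elastic fibres, had a deposited wild-type mean of 0.829 TPM, under the mean of 1 TPM that every listed gene has in each table, so it could be listed in all 3 tables only if every line was higher. It read 0.858, 0.843 and 1.24 TPM in wild type, 6.68, 5.00 and 4.68 in OTX2_OE, 5.71, 5.65 and 5.71 in OTX2-KO1 and 8.87, 8.55 and 9.17 in OE_LEUTX. VAMP8, a SNARE protein of endosomes and lysosomes, read 5.49, 7.66 and 5.63 TPM in wild type, 83.6, 77.2 and 87.2 in OTX2_OE, 23.4, 25.6 and 20.6 in OTX2-KO1 and 19.5, 15.5 and 19.4 in OE_LEUTX. OTX2_OE was far above the other lines for VAMP8, with shifts of 3.54, 1.74 and 1.41, while for FBLN5 the highest line was OE_LEUTX, with shifts of 1.70, 1.76 and 2.32.

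PCSK5 encodes a proprotein convertase that cleaves growth factor precursors, and PON2 a paraoxonase. PCSK5 read 4.68, 4.03 and 5.41 TPM in wild type, 14.1, 15.4 and 14.2 in OTX2_OE, 26.8, 41.4 and 40.7 in OTX2-KO1 and 13.9, 14.7 and 13.4 in OE_LEUTX, so the knockout was the highest line. PON2 read 2.46, 1.80 and 0.943 TPM in wild type, 13.4, 10.2 and 11.6 in OTX2_OE, 8.50, 3.78 and 5.69 in OTX2-KO1 and 38.4, 32.2 and 32.5 in OE_LEUTX, so OE_LEUTX was the highest. TNRC18 read 11.8, 8.08 and 14.2 TPM in wild type, 45.1, 49.5 and 45.4 in OTX2_OE, 20.9, 37.3 and 33.5 in OTX2-KO1 and 35.2, 35.7 and 33.6 in OE_LEUTX. Wild type was the lowest group for each of these genes, and the line farthest from it was a different one for each.

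SLA-2, a class I histocompatibility gene of the pig, read 6.42, 4.43 and 6.59 TPM in wild type, 16.1, 17 and 21.6 in OTX2_OE, 15.2, 21.3 and 27.7 in OTX2-KO1 and 17.3, 26.9 and 26 in OE_LEUTX. Its shifts were 1.51, 1.69 and 1.83, with a mean of 1.68 ± 0.18 and an F-test adjusted p of 0.389 among the lines. The class I genes are near-identical copies, so how reads were divided among them is uncertain.

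**Figure D1:**
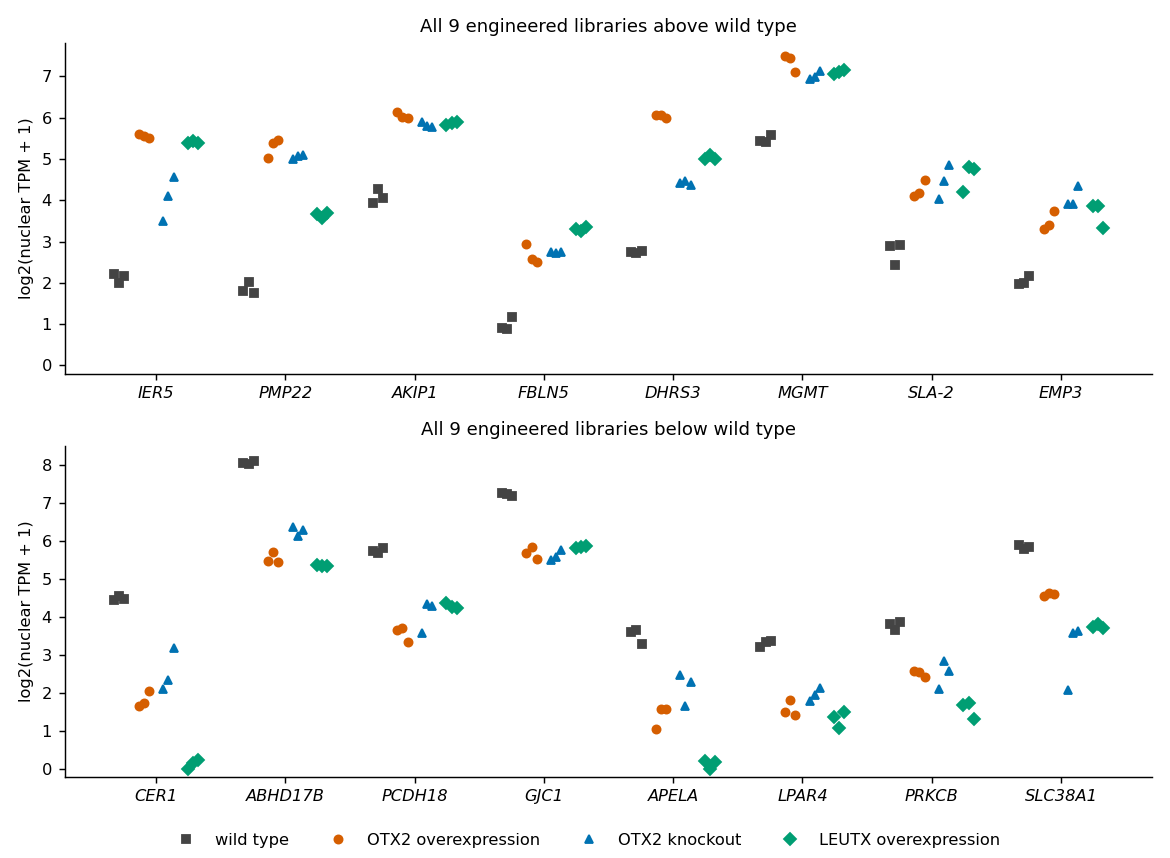
Levels of 8 higher and 8 lower shared genes in each of the 12 libraries, as log2(nuclear TPM + 1) on the vertical axis, with 1 symbol per library and 1 colour per group. In each gene the 3 wild-type libraries sit apart from all 9 engineered ones, and the OTX2-KO1-1 library of SLC38A1 at 3.22 TPM sits below the other 2 knockout libraries.

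The lower genes included secreted developmental signals and receptors. CER1 encodes Cerberus, a secreted inhibitor of NODAL, BMP and WNT ligands. It read 20.7, 22.3 and 21.2 TPM in wild type, 2.17, 2.32 and 3.15 in OTX2_OE, 3.33, 4.03 and 8.10 in OTX2-KO1 and 0, 0.124 and 0.171 in OE_LEUTX. OE_LEUTX was at or near 0 and the OTX2 lines were between it and wild type, with shifts of -2.67, -1.94 and -4.35.

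APELA encodes a peptide ligand of the apelin receptor and is known from human embryonic stem cells. It read 11.1, 11.7 and 8.79 TPM in wild type, 1.06, 1.98 and 1.99 in OTX2_OE, 4.54, 2.17 and 3.87 in OTX2-KO1 and 0.165, 0 and 0.144 in OE_LEUTX, with the same order of groups as CER1 and shifts of -2.12, -1.38 and -3.38. LPAR4, a receptor for lysophosphatidic acid, read 8.33, 9.06 and 9.26 TPM in wild type, 1.81, 2.52 and 1.70 in OTX2_OE, 2.46, 2.88 and 3.35 in OTX2-KO1 and 1.60, 1.13 and 1.80 in OE_LEUTX. TAC3, the precursor of neurokinin B, read 19.9, 15.8 and 16 TPM in wild type, 7.93, 7.02 and 5.99 in OTX2_OE, 5.84, 3.14 and 4.36 in OTX2-KO1 and 0.888, 0.201 and 0.0633 in OE_LEUTX. The line shifts were -1.72, -1.35 and -1.98 for LPAR4 and -1.19, -1.76 and -3.76 for TAC3, with OE_LEUTX farthest from wild type in both.

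SFRP5, a secreted WNT antagonist, read 10.6, 8.44 and 9.06 TPM in wild type, 3.19, 3.04 and 4.10 in OTX2_OE, 1.69, 4.17 and 3.02 in OTX2-KO1 and 1.57, 1.04 and 0.729 in OE_LEUTX. PRICKLE1, a component of planar cell polarity, read 71.2, 67.4 and 73.6 TPM in wild type, 11.1, 10.8 and 11.9 in OTX2_OE, 23.1, 34.5 and 33.6 in OTX2-KO1 and 11.6, 11.8 and 9.57 in OE_LEUTX. The knockout was the nearest line for PRICKLE1, at -2.55, -1.21 and -2.59, and OTX2_OE for SFRP5, at -1.22, -1.43 and -2.31.

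ABHD17B, an enzyme that removes palmitate from proteins, read 263, 260.4 and 274 TPM in wild type, 43.4, 51.6 and 42.6 in OTX2_OE, 81, 68.5 and 77.6 in OTX2-KO1 and 40.1, 39.3 and 39.9 in OE_LEUTX. Its mean shift was -2.34 ± 0.07, with lines at -2.51, -1.80 and -2.71. GJC1, the gap junction protein connexin 45, read 153, 151 and 143 TPM in wild type, 50.6, 55.8 and 44.8 in OTX2_OE, 43.9, 46.4 and 53.6 in OTX2-KO1 and 55.1, 56.4 and 57.1 in OE_LEUTX. The 9 engineered libraries of GJC1 spanned 43.9 to 57.1 TPM and its lines, at -1.55, -1.62 and -1.39, did not pass the F-test (adjusted p = 0.0846).

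PCDH18, a protocadherin, read 52.6, 50.1 and 55 TPM in wild type, 11.7, 12.2 and 9.18 in OTX2_OE, 11, 19.5 and 18.5 in OTX2-KO1 and 19.7, 18.3 and 17.9 in OE_LEUTX. PRKCB, protein kinase C beta, read 13, 11.6 and 13.5 TPM in wild type, 5.02, 4.84 and 4.37 in OTX2_OE, 3.30, 6.13 and 4.95 in OTX2-KO1 and 2.23, 2.33 and 1.48 in OE_LEUTX. SLC38A1, a glutamine transporter, read 58.1, 54.3 and 56.8 TPM in wild type, 22.3, 23.8 and 23.3 in OTX2_OE, 3.22, 11 and 11.5 in OTX2-KO1 and 12.4, 13.2 and 12.2 in OE_LEUTX. In all 3 genes OTX2-KO1-1 was the lowest knockout library, and in SLC38A1 the shift of the knockout was -2.74 with it and -2.23 without it.

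LIN28A encodes an RNA-binding protein that blocks maturation of let-7 microRNAs. It read 1674, 1766 and 1820.0 TPM in wild type, 774, 790.2 and 680.2 in OTX2_OE, 273, 1293 and 1222 in OTX2-KO1 and 602, 613 and 594 in OE_LEUTX. Its knockout shift was -1.21 with OTX2-KO1-1 and -0.48 without it, and its lines did not pass the F-test with that library (adjusted p = 0.712) but passed without it (adjusted p = 1.62e-09). Its paralog LIN28B read 76.6, 72.3 and 74.8 TPM in wild type, 22.6, 21.5 and 21.1 in OTX2_OE, 9.79, 57.3 and 58.5 in OTX2-KO1 and 47.4, 46.7 and 48.4 in OE_LEUTX, and its knockout shift of -1.18 was -0.36 without that library. The F-test among lines for LIN28B likewise had an adjusted p of 0.124 with it and 6.56e-11 without it.

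**Figure D2:**
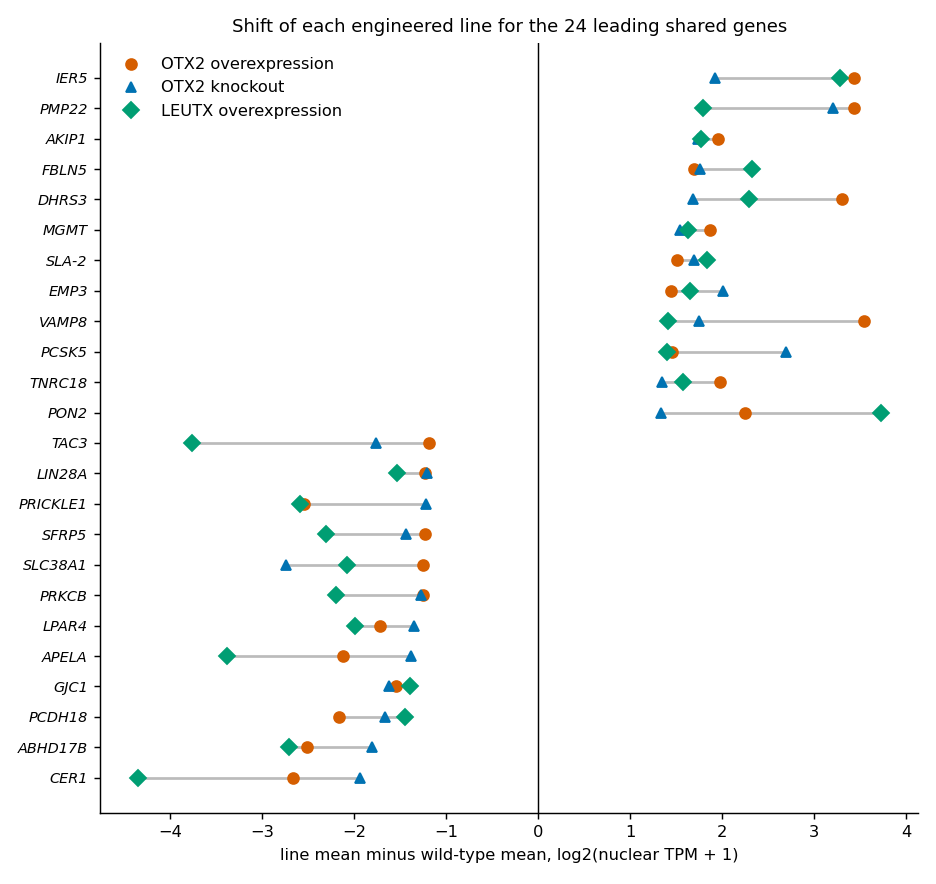
Shift of each engineered line from the wild-type mean, in log2(nuclear TPM + 1) on the horizontal axis, for the 24 leading shared genes on the vertical axis, with a grey bar over the range among lines. AKIP1, MGMT and GJC1 have lines close together, while CER1, TAC3, PON2 and VAMP8 have 1 line far from the others. All points include OTX2-KO1-1, and the knockout shift of LIN28A, drawn at -1.21, is -0.48 without that library.

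The edge of the rule was narrow. TTYH2 was just inside, with 45.5 to 55.9 TPM in wild type and 55.9 to 79.4 in the engineered libraries, and ASTN1 just outside, with 58.1 to 78.2 TPM in wild type and 39.6 to 58.1 in the engineered libraries. In both genes the highest library of the lower side and the lowest library of the upper side are equal at 3 significant digits.

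Among pluripotency regulators, POU5F1, SOX2, NANOG, DNMT3B and TFAP2C were not shared genes. POU5F1 read 1815, 1851 and 1863 TPM in wild type, 1605, 1569 and 1495 in OTX2_OE, 2173, 2250.3 and 2192 in OTX2-KO1 and 1975, 2022 and 2038 in OE_LEUTX, below wild type in OTX2_OE and above it in both other lines. NANOG, whose symbol several loci share, read 244, 248 and 222 TPM in wild type, 35.1, 38.2 and 35.6 in OTX2_OE, 222, 287 and 297 in OTX2-KO1 and 177, 191 and 182 in OE_LEUTX, below wild type in both overexpression lines and not in the knockout libraries -3 and -4. SOX2 read 397, 390.4 and 456 TPM in wild type, 127, 124 and 109.7 in OTX2_OE, 229, 427 and 428 in OTX2-KO1 and 318, 330.3 and 301 in OE_LEUTX, below wild type in both overexpression lines and in OTX2-KO1-1, and within the wild-type range in the other knockout libraries. DNMT3B, a de novo DNA methyltransferase, read 1917, 2099 and 2121 TPM in wild type, 336, 347 and 271 in OTX2_OE, 1701, 3024 and 2765 in OTX2-KO1 and 460.4, 455 and 401 in OE_LEUTX, far below wild type in both overexpression lines, while the knockout libraries lay on both sides. TFAP2C, a germ cell and trophoblast factor, read 20.5, 18.5 and 20.5 TPM in wild type, 17.8, 21.4 and 17.5 in OTX2_OE, 54.1, 64 and 61.6 in OTX2-KO1 and 120.1, 131 and 116 in OE_LEUTX, above wild type in OTX2-KO1 and OE_LEUTX and overlapping it in OTX2_OE.

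Of 13 core pluripotency genes listed, 0 were above wild type in all 9 libraries and 3 below (LIN28A, LIN28B and SALL4), and the median mean shift was -0.60 beside -0.003 for all genes. By line the list's median shift was -0.68 in OTX2_OE, -0.19 in OTX2-KO1 and -0.04 in OE_LEUTX. For all genes the medians by line were 0.01, -0.13 and 0.11, against which the line medians of every later list are to be read. The knockout median of the core list was thus near that of all genes, and was -0.03 with median-ratio scaling. SALL4, a zinc finger factor, had 111 to 133 TPM in wild type and 54.6 to 109 in the engineered libraries, with a knockout shift of -0.54, or -0.27 without OTX2-KO1-1. The limma mean contrast passed for 1 of the 13 upward and 7 downward, beside 31.7% and 31.6% of all genes. For this and every later list, the shares of all genes in the shared counts were 8.09% above and 11.3% below. Of 14 formative and primed genes, 1 was above and 3 below, with a median of -0.76 (-1.04, -0.38 and -0.07 by line), and 10 of the 14 passed downward. CDH2, N-cadherin of the primed state, read 55.3, 54.2 and 57.7 TPM in wild type, 27.5, 27.6 and 21.3 in OTX2_OE, 6.18, 9.28 and 9.31 in OTX2-KO1 and 5.26, 5.03 and 4.53 in OE_LEUTX, far below wild type in OTX2-KO1 and OE_LEUTX. SOX11 had 179.6 to 199 TPM in wild type and 42.8 to 170.4 in the engineered libraries and SALL2 387 to 464 TPM in wild type and 138 to 336 in the engineered libraries. ETV4, an FGF-responsive ETS factor, was the higher member and read 58.5, 47.2 and 69.7 TPM in wild type, 139, 125 and 151 in OTX2_OE, 87.1, 111 and 119 in OTX2-KO1 and 254, 267 and 223 in OE_LEUTX.

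Of 6 naive pluripotency genes, DPPA5 was above and KLF4 below wild type. DPPA5, a marker of naive cells, read 0.225, 0.556 and 0 TPM in wild type, 2.86, 4.81 and 5.31 in OTX2_OE, 7.86, 7.04 and 3.46 in OTX2-KO1 and 5.88, 5.01 and 4.55 in OE_LEUTX, so its wild-type level was at or near 0 and its shifts of 2.07, 2.46 and 2.30 depend on the added 1 TPM. With a deposited wild-type mean of 0.219 TPM it could be listed in all 3 tables only if every line was higher, so its direction was fixed by the tables' minimum. KLF4 read 5.69, 5.32 and 4.74 TPM in wild type, 2.19, 1.92 and 2.16 in OTX2_OE, 4.68, 4.12 and 4.49 in OTX2-KO1 and 0.660, 0.990 and 1.45 in OE_LEUTX, with the knockout nearest to wild type. Under median-ratio scaling and quantile normalization the lower count of this list was 0.

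Lineage lists held few listed genes. Of 4 primordial germ cell genes, TDRD7, a tudor-domain protein of germ granules, was above, at 4.64, 4.77 and 4.90 TPM in wild type, 34.8, 38.5 and 40.7 in OTX2_OE, 7.53, 9.61 and 9.77 in OTX2-KO1 and 8.41, 7.28 and 8.51 in OE_LEUTX. Of 4 trophoblast genes, PTGES, a prostaglandin E synthase, was above with 8.68 to 12.2 TPM in wild type and 12.2 to 101 in the engineered libraries, and EOMES, a T-box factor, was below. EOMES read 15.6, 15.5 and 16.8 TPM in wild type, 5.70, 6.21 and 5.39 in OTX2_OE, 6.18, 5.96 and 7.61 in OTX2-KO1 and 0.338, 0.203 and 0.0384 in OE_LEUTX, and it was also the only shared gene of 8 primitive streak genes. HESX1, a homeobox gene of the anterior neural plate, was the only shared one of 4 neuroectoderm genes and read 73.8, 78.1 and 70.4 TPM in wild type, 20.8, 19.8 and 19.5 in OTX2_OE, 49.9, 32.8 and 29 in OTX2-KO1 and 6.34, 5.22 and 6.63 in OE_LEUTX. CER1 was the only one of 3 hypoblast and endoderm genes, and 0 of 8 fibroblast genes were shared. The single listed sex chromosome marker overlapped.

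In the NODAL and TGF-beta list, 1 of 13 genes was above and 2 were below, near the 8.09% and 11.3% of all genes. ID2, an inhibitor of basic helix-loop-helix factors, read 3.57, 2.66 and 4.08 TPM in wild type, 17, 17.1 and 26.9 in OTX2_OE, 6.85, 6.68 and 11.2 in OTX2-KO1 and 40.8, 36.5 and 40.9 in OE_LEUTX, and SKIL, a repressor of SMAD signalling, read 53.2, 52.5 and 51.5 TPM in wild type, 8.13, 9.96 and 8.97 in OTX2_OE, 26.2, 23.6 and 25.1 in OTX2-KO1 and 46.6, 45.7 and 44.7 in OE_LEUTX. The other lower gene was CER1, and the list's median of 0.05 was close to that of all genes. In the FGF-ERK list, ETV4 was above and DUSP4 and SPRY1, feedback inhibitors of ERK signalling, were below among 15 genes. These counts too were near the shares of all genes. SPRY1 had 9.78 to 10.1 TPM in wild type and 3.16 to 5.93 in the engineered libraries and line shifts of -0.74, -1.05 and -1.04, and DUSP4 had 70.4 to 77.2 TPM in wild type and 23.3 to 62.4 in the engineered libraries. The DUSP4 shift in the knockout was -0.88, or -0.50 without OTX2-KO1-1. None of 6 WNT target genes was shared.

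Retinoic acid genes were more often higher. Of 11 listed, 4 were above and 0 below, beside 8.09% and 11.3% of all genes. The median mean shift was 0.98 (1.47, 0.65 and 0.33 by line). The limma mean contrast passed for 7 upward and 1 downward, beside 31.7% and 31.6% of all genes. DHRS11, a dehydrogenase related to DHRS3, read 12.9, 13.4 and 12 TPM in wild type, 668, 665 and 672 in OTX2_OE, 23.7, 27.2 and 25 in OTX2-KO1 and 23.3, 30.2 and 25 in OE_LEUTX. RXRG, a retinoid X receptor, read 0.965, 1.45 and 0.858 TPM in wild type, 28.7, 30.6 and 27 in OTX2_OE, 4.21, 2.91 and 3.06 in OTX2-KO1 and 2.62, 2.21 and 1.57 in OE_LEUTX. RDH10, the enzyme that oxidises retinol to retinal, read 3.33, 2.69 and 2.59 TPM in wild type, 24.4, 25.8 and 27 in OTX2_OE, 4.74, 4.41 and 5.56 in OTX2-KO1 and 3.88, 4.25 and 4.26 in OE_LEUTX. In these 3 genes OTX2_OE was far above the others, and the shifts in OTX2-KO1 and OE_LEUTX ran from 0.41 to 1.07. With a deposited wild-type mean of 0.921 TPM, RXRG too could be listed in all 3 tables only if every line was higher, so its direction was fixed by the tables' minimum. RXRG is 1 of the 4 counted as above, and its place there is no result. The others are DHRS3, DHRS11 and RDH10. With median-ratio or quantile scaling 3 of the 11 were shared.

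**Figure D3:**
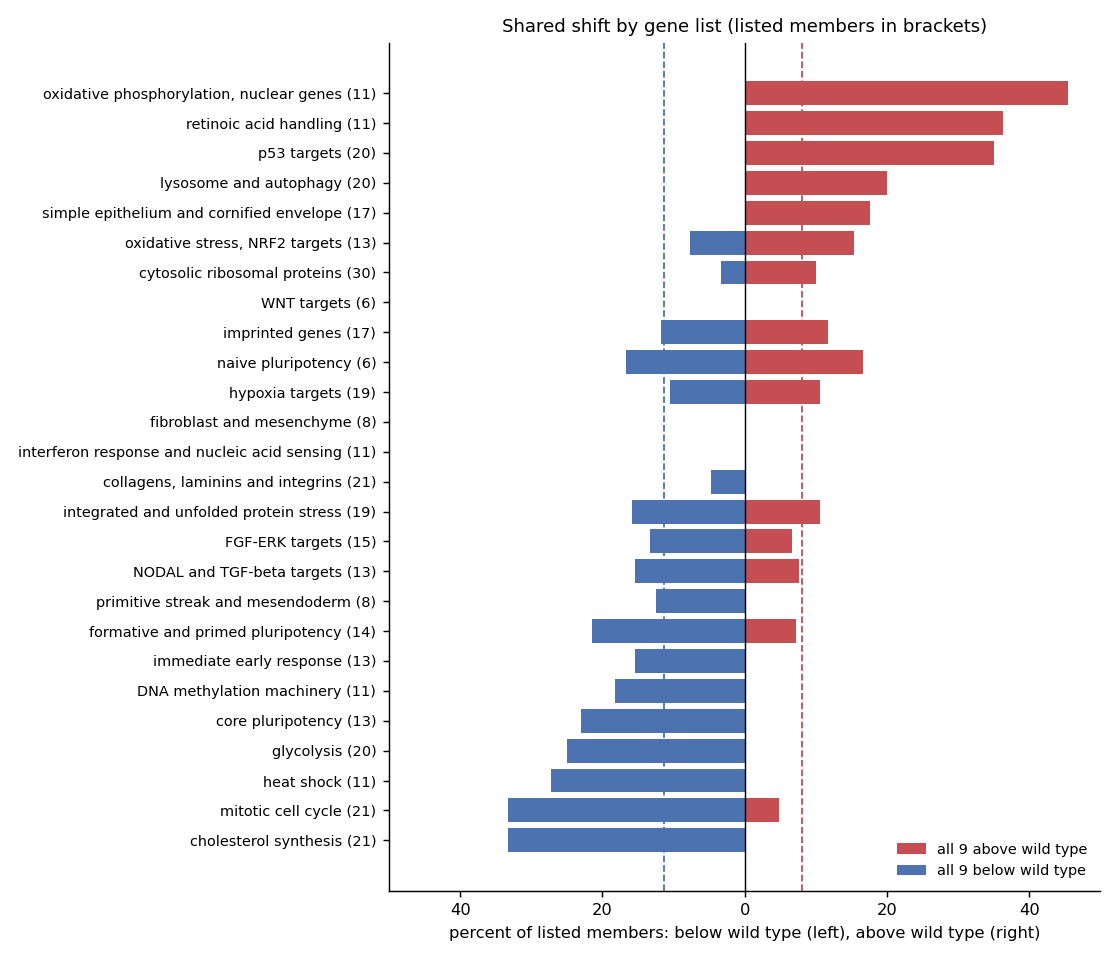
Percent of the listed members of each gene list that lay above (red, right) or below (blue, left) wild type in all 9 engineered libraries, for lists with at least 6 listed members, whose number is in brackets. Dashed lines mark the percentages for all 11954 genes, 8.09 above and 11.3 below.

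p53 target genes were above wild type in 7 of 20 cases and below in 0, beside 8.09% and 11.3% of all genes. The median mean shift was 0.49 (0.76, 0.29 and 0.29 by line). The limma mean contrast passed for 12 of the 20 upward and 1 downward, beside 31.7% and 31.6% of all genes. CDKN1A, the cell cycle inhibitor p21, read 15.1, 13.1 and 14.7 TPM in wild type, 63.3, 54.5 and 59.5 in OTX2_OE, 34.4, 37.1 and 49.8 in OTX2-KO1 and 37.1, 38.5 and 36.5 in OE_LEUTX. GDF15, a secreted stress factor, read 1.14, 1.37 and 1.59 TPM in wild type, 55.2, 50.1 and 45.6 in OTX2_OE, 4.24, 3.50 and 3.85 in OTX2-KO1 and 2.87, 3.99 and 2.96 in OE_LEUTX. All 9 libraries of CDKN1A were more than 2-fold above wild type, and GDF15 was highest in OTX2_OE by a wide margin, with shifts of 4.44, 1.04 and 0.85. SESN2, a sestrin induced by stress, read 12.7, 11.4 and 13.5 TPM in wild type, 68.3, 69.6 and 64 in OTX2_OE, 17.7, 25.9 and 36.5 in OTX2-KO1 and 23.4, 21.1 and 31.1 in OE_LEUTX, and BBC3, a BH3-only death factor, had 5.50 to 8.28 TPM in wild type and 9.57 to 24.7 in the engineered libraries. The other 3 genes, BAX, FAS and ZMAT3, fall outside the rule for named genes. Under quantile normalization 5 of the 20 were shared.

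Other stress lists were mixed. In the integrated and unfolded protein stress list 2 of 19 genes were above (PHGDH and SESN2) and 3 below (HSP90B1, MTHFD2 and ASNS). PHGDH, the first enzyme of serine synthesis, read 77.7, 86.7 and 83.9 TPM in wild type, 236, 226 and 219.7 in OTX2_OE, 114, 129 and 150.4 in OTX2-KO1 and 168, 175 and 172 in OE_LEUTX, while MTHFD2, a mitochondrial folate enzyme, had 20.7 to 23.6 TPM in wild type and 9.17 to 17 in the engineered libraries, and HSP90B1, a chaperone of the endoplasmic reticulum, had 771 to 809.9 TPM in wild type and 476 to 709 in the engineered libraries. In the heat shock list 0 of 11 were above and 3 below, HSP90AB1, DNAJA1 and HSPH1. HSP90AB1 had 4609 to 4870.4 TPM in wild type and 3031 to 4354 in the engineered libraries, DNAJA1 had 672 to 709 TPM in wild type and 524 to 665 in the engineered libraries and HSPH1 had 81.8 to 87 TPM in wild type and 42.7 to 81.2 in the engineered libraries. The heat shock counts depend on scaling, since with TPM as deposited or with median-ratio scaling 0 of the 11 were below. In the NRF2 list SRXN1, a peroxiredoxin reductase, and OSGIN1 were above and GCLM, of glutathione synthesis, was below among 13. SRXN1 read 12.1, 11.6 and 12.3 TPM in wild type, 71.5, 70.0 and 73.2 in OTX2_OE, 17.4, 24.9 and 27.7 in OTX2-KO1 and 16.5, 16.7 and 17.7 in OE_LEUTX, OSGIN1 had 1.44 to 1.67 TPM in wild type and 2.47 to 6.40 in the engineered libraries, and GCLM had 33.6 to 35.2 TPM in wild type and 11.2 to 33.3 in the engineered libraries. GCLM was not shared under any of the 3 other scalings.

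Of 13 immediate early genes, FOS and EGR2 were below and 0 above. FOS had 28.7 to 38 TPM in wild type and 13.1 to 26.6 in the engineered libraries and EGR2 2.05 to 3.02 TPM in wild type and 0.307 to 1.08 in the engineered libraries. Of 19 hypoxia targets 2 were above and 2 below. PDK1, a kinase that holds back pyruvate entry into mitochondria, read 86.7, 84.2 and 88.8 TPM in wild type, 16, 18.2 and 16.9 in OTX2_OE, 31.8, 36.5 and 33.6 in OTX2-KO1 and 38.6, 37.5 and 38.7 in OE_LEUTX, and DDIT4, a stress inhibitor of mTORC1, had 32.1 to 33.5 TPM in wild type and 35.3 to 75.9 in the engineered libraries. CA9, a carbonic anhydrase, had 10.7 to 12.2 TPM in wild type and 13.6 to 19.4 in the engineered libraries, and ERO1A, an oxidase of the endoplasmic reticulum, had 41.4 to 45.9 TPM in wild type and 12.6 to 41 in the engineered libraries. The F-test among lines for DDIT4 had an adjusted p of 0.699, and 0.0164 without OTX2-KO1-1. Of 11 interferon genes 0 were shared, and 7 passed the limma mean contrast upward and 2 downward, beside 31.7% and 31.6% of all genes. The count of 0 holds under this scaling and with all libraries, since 1 was above with TPM as deposited, 2 with median-ratio or quantile scaling, and 1 without OTX2-KO1-1.

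Shared glycolysis genes were all lower and shared respiratory chain genes all higher. Of 20 glycolysis genes 0 were above and 5 below, beside 8.09% and 11.3% of all genes. The median was -0.22 (-0.18, -0.15 and -0.43 by line). The knockout value was near the -0.13 of all genes in that line, and was 0.004 with median-ratio scaling. The limma mean contrast passed for 10 downward and 0 upward, beside 31.6% and 31.7% of all genes. LDHA, lactate dehydrogenase A, read 285, 306 and 292 TPM in wild type, 109, 127 and 103 in OTX2_OE, 195, 142 and 138 in OTX2-KO1 and 149.8, 154 and 155 in OE_LEUTX, and SLC16A3, a lactate exporter, read 21.7, 20.1 and 26.5 TPM in wild type, 9.61, 8.97 and 7.08 in OTX2_OE, 10.4, 12.5 and 11.8 in OTX2-KO1 and 2.13, 2.42 and 1.99 in OE_LEUTX. HK1 had 273 to 291 TPM in wild type and 171 to 254 in the engineered libraries and HK2 39.7 to 43.9 TPM in wild type and 6.55 to 33 in the engineered libraries, both hexokinases, and the fifth was PGAM1, outside the rule for named genes. The HK2 shift in the knockout was -1.10, or -0.39 without OTX2-KO1-1, the library in which HK2 stood at 6.55 TPM.

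Of 11 nuclear genes of oxidative phosphorylation 5 were above and 0 below, beside 8.09% and 11.3% of all genes. The median was 0.33 (0.50, 0.41 and 0.20 by line). The limma mean contrast passed for 6 upward and 2 downward, beside 31.7% and 31.6% of all genes. All 5 have NDUF symbols, the subunits of complex I, with NDUFA4 now assigned to complex IV. NDUFA1 read 72.9, 75.1 and 70.7 TPM in wild type, 180.3, 180.1 and 187 in OTX2_OE, 92.5, 101 and 98.2 in OTX2-KO1 and 115, 109 and 115 in OE_LEUTX, NDUFB8 had 218 to 242 TPM in wild type and 296 to 522 in the engineered libraries, NDUFA2 had 63.1 to 67.6 TPM in wild type and 83.4 to 141 in the engineered libraries and NDUFA4 had 526 to 564 TPM in wild type and 661 to 1041 in the engineered libraries. Several loci share the symbol NDUFA4, so its level is uncertain. NDUFB9, the fifth, falls outside the rule. The transcripts of the mitochondrial genome were left out of these levels, and their share of TPM, given above, did not place all 9 libraries on one side of wild type.

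Cholesterol genes were more often lower. Of 21 listed, 0 were above and 7 below, beside 8.09% and 11.3% of all genes. The list's counts were the same under each of the 4 scalings. The median was -0.49 (-0.38, -0.72 and -0.01 by line). The limma mean contrast passed for 13 downward and 5 upward, beside 31.6% and 31.7% of all genes. HMGCS1, the enzyme that makes HMG-CoA, read 833, 891 and 845 TPM in wild type, 223, 239 and 223 in OTX2_OE, 178, 211 and 226 in OTX2-KO1 and 571, 576 and 565 in OE_LEUTX. OE_LEUTX was the line nearest to wild type, with shifts of -1.90, -2.06 and -0.58. SC5D, of the last steps, read 121, 108 and 107 TPM in wild type, 24, 24.9 and 27.4 in OTX2_OE, 69, 50.1 and 52.7 in OTX2-KO1 and 72.1, 76.9 and 74.3 in OE_LEUTX. FDPS, SQLE and INSIG1 were also lower and fall outside the rule for named genes.

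Mitotic genes were lower in 7 of 21 cases and higher in 1, beside 11.3% and 8.09% of all genes. The median was -0.38 (-0.51, -0.29 and -0.17 by line). The limma mean contrast passed for 13 downward and 3 upward, beside 31.6% and 31.7% of all genes. CDK1, the mitotic kinase, read 211, 210.3 and 214 TPM in wild type, 74.4, 79.9 and 72.6 in OTX2_OE, 193, 169 and 156 in OTX2-KO1 and 164, 167 and 175 in OE_LEUTX, and TOP2A, topoisomerase II alpha, read 369, 351 and 346 TPM in wild type, 208, 215 and 221 in OTX2_OE, 173, 211 and 212 in OTX2-KO1 and 281, 285 and 279 in OE_LEUTX. BUB1B, of the spindle checkpoint, had 87.9 to 93.5 TPM in wild type and 57.4 to 79.9 in the engineered libraries, while AURKB, aurora kinase B, was the higher gene and read 30.7, 28.1 and 29 TPM in wild type, 72.7, 73.7 and 113 in OTX2_OE, 45.2, 38 and 54.2 in OTX2-KO1 and 78.1, 68.5 and 44.6 in OE_LEUTX. With median-ratio scaling 3 of the 21 were lower. BUB1, CCNA2, TPX2 and PCNA were the other 4 lower genes.

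Lysosomal genes were higher in 4 of 20 cases and lower in 0, beside 8.09% and 11.3% of all genes. The median was 0.42 (0.73, 0.43 and 0.25 by line). The limma mean contrast passed for 15 upward and 2 downward, beside 31.7% and 31.6% of all genes. CTSB, the protease cathepsin B, read 125, 139.7 and 129 TPM in wild type, 425, 413 and 456 in OTX2_OE, 172, 167 and 182 in OTX2-KO1 and 293, 298 and 284 in OE_LEUTX. PSAP, the precursor of saposins, read 144, 139.5 and 136 TPM in wild type, 497, 481 and 484 in OTX2_OE, 196, 337 and 297 in OTX2-KO1 and 291, 294 and 289 in OE_LEUTX. GABARAPL1, of autophagosomes, had 73.9 to 76.6 TPM in wild type and 107 to 211 in the engineered libraries, and ATP6V1H, of the proton pump, had 18.1 to 19.2 TPM in wild type and 19.5 to 37.7 in the engineered libraries. OTX2_OE was the highest line in each of the 4.

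Of 11 genes of the DNA methylation machinery 0 were above and 2 below. The median mean shift was -0.47, while the medians by line were -0.01 in OTX2_OE, -0.57 in OTX2-KO1 and -0.02 in OE_LEUTX. HELLS, a chromatin remodeller needed for DNA methylation, read 173, 163 and 159 TPM in wild type, 27, 26.9 and 27.7 in OTX2_OE, 123, 150.0 and 151 in OTX2-KO1 and 80.6, 79.1 and 83.4 in OE_LEUTX, nearest to wild type in OTX2-KO1. DNMT1, the maintenance methyltransferase, had 165 to 175 TPM in wild type and 75 to 140.4 in the engineered libraries, with a knockout shift of -0.57, or -0.27 without OTX2-KO1-1. Of 17 imprinted genes PEG10 and DIRAS3 were above and SNRPN and NAP1L4 below. PEG10 read 8.91, 8.26 and 7.09 TPM in wild type, 13.4, 15 and 14.4 in OTX2_OE, 37.1, 63 and 61.3 in OTX2-KO1 and 49.6, 50.5 and 46.4 in OE_LEUTX, SNRPN read 411, 435 and 409 TPM in wild type, 184, 166 and 164 in OTX2_OE, 318, 347 and 327 in OTX2-KO1 and 181, 135 and 158 in OE_LEUTX, DIRAS3 had 1.70 to 1.88 TPM in wild type and 4.77 to 14.6 in the engineered libraries and NAP1L4 had 406 to 418 TPM in wild type and 178 to 401 in the engineered libraries. Both directions thus occurred within the imprinted list.

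Of 17 epithelial genes 3 were above and 0 below. TGM1, a transglutaminase of the cornified envelope, read 1.39, 1.07 and 1.20 TPM in wild type, 145, 142 and 146 in OTX2_OE, 1.55, 2.18 and 1.44 in OTX2-KO1 and 4.25, 4.03 and 3.15 in OE_LEUTX, near wild type in OTX2-KO1, while S100A10 had 141 to 171 TPM in wild type and 179 to 383 in the engineered libraries and ANXA3 had 2.31 to 2.76 TPM in wild type and 3.17 to 4.46 in the engineered libraries. Of 30 ribosomal protein genes 3 were above, RPL18 and RPS14 among them, and 1 below (RPL4). The counts turn with scaling, being 4 above and 3 below with TPM as deposited, 4 and 1 with median-ratio scaling, and 3 and 7 with quantile normalization. Several loci share the symbol RPL18. RPL18 had 1647 to 1722 TPM in wild type and 1899.9 to 3615 in the engineered libraries, RPS14 had 1800.2 to 1907 TPM in wild type and 2091 to 3023 in the engineered libraries and RPL4 had 2950.5 to 3162 TPM in wild type and 2109.5 to 2719.7 in the engineered libraries. Of 21 collagen, laminin and integrin genes LAMA1, a laminin chain, was below, with 17.9 to 19.8 TPM in wild type and 5.8 to 17.8 in the engineered libraries, and it was not shared with TPM as deposited. The only histone gene listed, HIST1H2BD, was above, at 5.59, 4.45 and 3.49 TPM in wild type, 14.5, 16 and 14.5 in OTX2_OE, 8.38, 8.43 and 12 in OTX2-KO1 and 26.2, 35.7 and 26.1 in OE_LEUTX, and belongs to a family of near-identical copies.

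Higher and lower shared genes had different spans and wild-type levels, given here with no test. The median span from gene start to gene end was 10.6 kb for the higher and 47.9 kb for the lower genes, beside 26.6 kb for all. In 6 bins of equal size from short to long, the higher genes fell from 17.3% to 2.36% of the bin and the lower genes rose from 3.16% to 17.4%, and without OTX2-KO1-1 from 20.7% to 5.02% and from 4.67% to 18.2%. Median shifts over all genes ran from 0.32 in the shortest bin to -0.31 in the longest in OTX2_OE, from 0.21 to -0.45 in OTX2-KO1 and from 0.18 to 0.06 in OE_LEUTX. The median wild-type level was 18.7 TPM for the higher and 45.7 TPM for the lower genes, beside 23.1 TPM for all. From the lowest to the highest of 6 bins of wild-type level, the higher genes went from 10.6% to 6.77% and the lower from 3.21% to 19.6%. At low levels a gene has little room below wild type, and the tables hold no gene with a mean under 1 TPM over their 6 libraries. Of 74 listed genes with a deposited wild-type mean under 1 TPM, 35 were higher and 0 lower. Gene span and level moved with these counts, and their part in the shared shift was not tested.

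**Figure D4:**
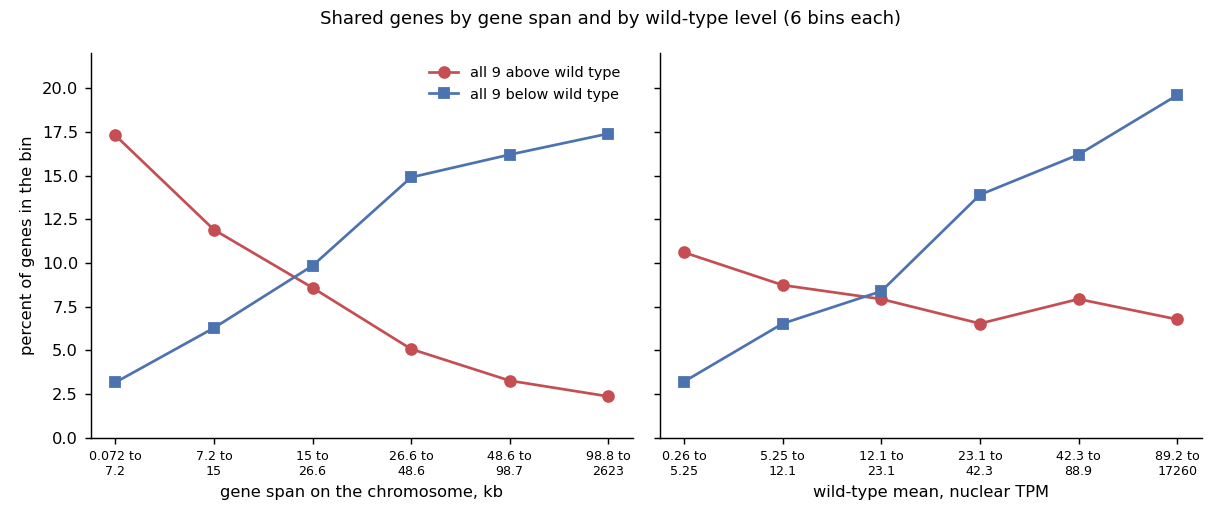
Percent of genes above (red) or below (blue) wild type in all 9 engineered libraries, on the vertical axis, in 6 bins of gene span in kb (left) and of wild-type mean in nuclear TPM (right). Higher genes fall from 17.3% to 2.36% with span, and lower genes rise from 3.16% to 17.4% with span and from 3.21% to 19.6% with level.

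By chromosome, the higher genes made up from 2.88% (chromosome 11) to 12.1% (chromosome 2) of an autosome and the lower from 6.89% (chromosome 12) to 18.2% (chromosome 8), by RefSeq gene positions. On chromosome X the shares were 8.37% and 11.4%, close to those of all genes.

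Knockout shifts were also computed from the other 2 knockout libraries. Without OTX2-KO1-1, the shift moved by over 1.5 times for 33 of the 967 higher and 227 of the 1351 lower genes. Among named genes the change was largest for LIN28B (-1.18 to -0.36), HK2 (-1.10 to -0.39) and LIN28A (-1.21 to -0.48), and IER5 went the other way, from 1.92 to 2.20. The F-test among lines passed only without the library for HK2 (adjusted p 0.463 with and 0.000173 without), NDUFA4 (0.556 and 1.09e-05), DNMT1 (0.467 and 0.000881), SPRY1 (0.0898 and 0.0290), DUSP4 (0.0769 and 0.0324) and TTYH2 (0.0777 and 0.0362), besides AKIP1, LIN28A, LIN28B and DDIT4. Without the library, p53 targets had 9 above and 1 below, cholesterol genes 0 and 7, mitotic genes 1 and 8, and ribosomal protein genes 3 and 7.

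**Figure D5:**
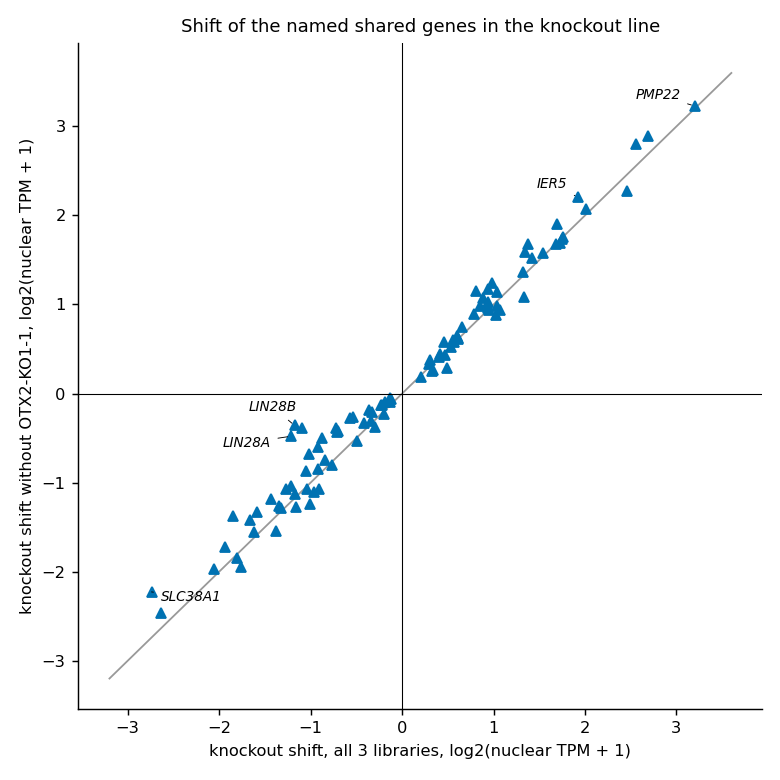
Knockout shift of the named shared genes with all 3 libraries (horizontal) and without OTX2-KO1-1 (vertical), in log2(nuclear TPM + 1), with a line of equality. LIN28A, LIN28B and SLC38A1 lie above the line, and most genes lie near it.

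The authors' deposited tables also give a call for each line. Of the 967 higher genes, the authors' deposited table called 410 (42.4%) up in OTX2_OE, 246 (25.4%) in OTX2-KO1 and 221 (22.9%) in OE_LEUTX, beside 14.5%, 5.64% and 8.07% of all genes, and called 2 down in OTX2_OE. Of the 1351 lower genes, the authors' deposited table called 811 (60.0%) down in OTX2_OE, 209 (15.5%) in OTX2-KO1 and 206 (15.2%) in OE_LEUTX, beside 18.5%, 6.47% and 6.24% of all genes. These calls rest on the same libraries and controls.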

How the data were processed

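Bulk RNA-seq of 12 pEPSC libraries was analysed from 3 deposited tables. Values are TPM computed by the authors, and no gene listed has a mean under 1 over the 6 libraries of its table. Each deposited table adds a log2 fold change, an adjusted p-value and a call made by the authors. Per the submitters' processing notes, the tools, whose roles are not given, include StringTie 2.1.4, STAR 2.7.3, featureCounts 2.0.0 and Trim Galore 0.6.6, and the build is Sscrofa11.1. The tables hold 13293, 12299 and 12587 genes. All 3 list 11989 genes, and 1607 others were not analysed. TPM does not tell the read depth, which is unknown here. No counting interval was therefore computed, and a value of 0 means listed at 0.

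Leaving out 35 mitochondrial genes, TPM was rescaled to the same total in each library and analysed as log2(TPM + 1). One limma 3.58.1 fit of the 4 groups (trended, robust, R 4.3.3, statmod 1.5.0) gave each line against wild type, the mean of the 3 lines, and the F-test among lines, adjusted over all genes. The fit was first tested on simulated libraries drawn independently, with the same shift in every line. That setting does not cover correlated libraries within a line or differences among lines, so it does not bear on those. Gene spans are from RefSeq, matched by symbol for all 11954 genes. Python 3.11.15, pandas 2.3.3, numpy 2.4.6 and matplotlib 3.10.9 were used.

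The members, the 32 gene lists and the tests were chosen with earlier results of these data known. Named genes were OTX2, LEUTX, 5 regulators (POU5F1, SOX2, NANOG, DNMT3B and TFAP2C), 12 shared genes each way by the shift of the nearest line, up to 4 shared members of each list by the same measure, and the genes beside the threshold. The alternatives were other scalings, filters, pseudocounts, each library or line left out, the line as a block and the replicate number as a block. The embryo table was not used, and some genes that meet the naming rule are not reported here.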

Additional observations from a re-analysis of the deposited data

Results flagged for a closer look

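By an F-test among the lines, the 3 lines differed from each other for 795 of the 967 higher and 1099 of the 1351 lower genes, beside 87.7% of all genes. OTX2 is listed here because wild type lay between the lines, every library of OTX2_OE being above and every library of both other lines below, with a range among line means of 13.1 on the log2 scale. POU5F1 is listed because every library of OTX2-KO1 and OE_LEUTX was above wild type and every library of OTX2_OE below it, with a range among line means of 0.50. For OTX2 and POU5F1 the limma F-test among the lines gave adjusted p-values of 2.16e-16 and 6.22e-07.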

How the results depend on the processing

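Shared genes numbered 880 higher and 1315 lower with TPM as deposited, 1211 and 1268 with median-ratio scaling, and 1187 and 1511 with quantile normalization, of which 805 and 1211, 845 and 1034, and 801 and 1149 were also shared in the report. Median-ratio factors were 0.825 for OTX2-KO1-1 and 1.07 to 1.11 for OE_LEUTX, beside 0.955 and 0.953 for the other knockout libraries and 0.985 to 1.04 for wild type. Leaving out a line or library can only add shared genes. They numbered 2895 and 2294 without OTX2-KO1, and 1643 and 2914 without OE_LEUTX. With a library left out they ranged from 976 to 1478 higher (the highest without OTX2-KO1-1) and from 1360 to 1571 lower. The mean contrast then ranged from 3197 to 4655 higher and from 3226 to 4341 lower, the F-test from 10127 to 11140, and OTX2_OE, OTX2-KO1 and OE_LEUTX against wild type from 8193 to 9870, 6164 to 8295 and 5634 to 8286. A gap of at least 0.5 log2 left 128 higher and 133 lower genes, and a shift of at least 1 log2 in every line 60 and 39. With the line as a correlated block the mean contrast passed for 0 genes in either direction. Deviations of same-numbered libraries from their group means correlated at -0.19 to 0.11. The labels do not say whether such libraries were handled together, so pairing by number is unknown. With the replicate number as a block (OTX2-KO1 left out, whose numbers differ) 4921 genes were higher and 4187 lower. The mean shift of OTX2 went from -1.31 to 1.99 without OE_LEUTX. Apart from the line block, 2364 of 2399 values of named genes kept their direction and side of the threshold, 33 lost the call, and 9 genes lost it at least once, among them SOX2, NANOG, LIN28B, SALL4, HK2, DNMT1, DUSP4 and DNAJA1. LIN28B lost it without any 1 wild-type library (limma adjusted p from 0.0535 to 0.0618), as did HK2 (0.0956 to 0.125) and DUSP4 (0.0561 to 0.0828). DNMT1 lost it without WT-3 (0.0559), and HK2 without any 1 library of OTX2_OE or OE_LEUTX (0.0614 to 0.0719). POU5F1 gained a call without OTX2_OE (0.19, limma adjusted p = 0.00261). The cause of these changes was not tested. Depth is unknown, so what it limits cannot be stated.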

Other observations

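Further gene groups were listed after the values had been seen, so their counts describe these libraries only. Of 33 genes of WNT receptors, secreted WNT antagonists and planar polarity, 3 were above and 8 below wild type in all 9 engineered libraries. The shares of all genes were 8.09% and 11.3%, and the list's median mean shift was -0.08. Among the Frizzled receptors, FZD7 read 125, 115 and 133 TPM in wild type, 54.6, 57.7 and 50.8 in OTX2_OE, 32.7, 49 and 50.3 in OTX2-KO1 and 2.55, 3.01 and 2.79 in OE_LEUTX, and FZD5 read 255, 231 and 266 TPM in wild type, 87.2, 98.2 and 82.2 in OTX2_OE, 113, 179 and 161 in OTX2-KO1 and 36.1, 34.2 and 33.7 in OE_LEUTX. OE_LEUTX was the lowest line for both. FZD3 read 13.8, 14.3 and 14.3 TPM in wild type, 6.82, 8.04 and 7.29 in OTX2_OE, 4.24, 3.68 and 4.49 in OTX2-KO1 and 13.4, 13 and 12.7 in OE_LEUTX, close to wild type in OE_LEUTX. The listed genes FZD1, FZD2, FZD4, FZD6, FZD8 and FZD10 overlapped wild type and moved in both directions. In the order OTX2_OE, OTX2-KO1 and OE_LEUTX, shifts were 0.49, 0.57 and -0.13 for FZD1 and -0.24, 0.08 and -0.58 for FZD2. Those of FZD4 were -0.29, 0.46 and -0.32, and those of FZD6 -0.17, 0.34 and 0.89. For FZD8 they were -0.78, -0.03 and -2.03, and for FZD10 -0.75, 0.95 and 0.96. LGR4, the R-spondin receptor, read 64.4, 64.9 and 64.6 TPM in wild type, 17.2, 21 and 18 in OTX2_OE, 28.4, 35.3 and 31.8 in OTX2-KO1 and 32.9, 31.4 and 31 in OE_LEUTX, and ROR1, a receptor for WNT5A, read 27.5, 26.8 and 28.9 TPM in wild type, 10.5, 9.91 and 8.99 in OTX2_OE, 9.39, 16.2 and 13.2 in OTX2-KO1 and 8.83, 9.49 and 9.24 in OE_LEUTX. DACT1, a regulator of Dishevelled, read 27, 25.4 and 28.3 TPM in wild type, 11.7, 12.5 and 12.3 in OTX2_OE, 8.92, 13.7 and 16.1 in OTX2-KO1 and 4.28, 2.74 and 2.26 in OE_LEUTX, while its relative DACT3 was higher, at 7.93, 8.96 and 8.02 TPM in wild type, 18.3, 19.7 and 17 in OTX2_OE, 10.4, 13.6 and 12.7 in OTX2-KO1 and 16.2, 16.4 and 14.7 in OE_LEUTX. The other higher genes were DKK3 and DVL3.

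Of 11 listed genes of class I histocompatibility and antigen presentation, 5 were above and 1 below, beside 8.09% and 11.3% of all genes. Their median mean shift was 0.77. B2M, the invariant light chain of class I molecules, read 41.3, 38 and 39.7 TPM in wild type, 80.0, 71.9 and 80.5 in OTX2_OE, 75.9, 64.2 and 75.2 in OTX2-KO1 and 97, 98.8 and 99.8 in OE_LEUTX. SLA-1 read 8.85, 8.86 and 9.90 TPM in wild type, 22.3, 24.5 and 26.5 in OTX2_OE, 23.4, 24.2 and 27.8 in OTX2-KO1 and 28, 29.4 and 22.3 in OE_LEUTX, and SLA-3 read 1.01, 1.86 and 1.00 TPM in wild type, 3.81, 3.55 and 3.98 in OTX2_OE, 4.07, 5.51 and 6.94 in OTX2-KO1 and 3.43, 3.76 and 3.18 in OE_LEUTX. TAPBP, which loads peptides onto class I molecules, had 11.8 to 15.1 TPM in wild type and 19 to 28.5 in the engineered libraries, while TAP2, a peptide transporter subunit, was the lower gene and read 80.2, 77.9 and 84.5 TPM in wild type, 44.1, 44.9 and 35.2 in OTX2_OE, 55.5, 77.6 and 71.1 in OTX2-KO1 and 57.9, 55.5 and 54.8 in OE_LEUTX. SLA-6, SLA-7 and SLA-8 overlapped wild type. In the order OTX2_OE, OTX2-KO1 and OE_LEUTX, their shifts were 1.40, 0.17 and 0.33 for SLA-6 and 0.26, 0.40 and -0.98 for SLA-7. Those of SLA-8 were 0.26, -0.21 and 0.23. SLA-1, SLA-2 and SLA-3 are near-identical copies, so their separate levels are uncertain, and several loci share the symbol B2M.

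Of 15 genes of the LIN28 and let-7 axis 0 were above and 3 below, beside 8.09% and 11.3% of all genes. Besides LIN28A and LIN28B, NR6A1, a nuclear receptor of germ cells and early embryos, read 235, 248 and 245 TPM in wild type, 102, 115 and 99.8 in OTX2_OE, 98.9, 166 and 155 in OTX2-KO1 and 8.53, 8.23 and 8.04 in OE_LEUTX, lowest in OE_LEUTX by a wide margin. Of other known let-7 targets in the list, HMGA2 and IGF2BP1 overlapped wild type, HMGA2 at 74.2, 74.1 and 81.5 TPM in wild type, 88.7, 101 and 89.3 in OTX2_OE, 21.4, 70.2 and 87.7 in OTX2-KO1 and 68.2, 69.7 and 74.4 in OE_LEUTX and IGF2BP1 at 231, 212 and 245 TPM in wild type, 204, 223 and 195 in OTX2_OE, 82.7, 205 and 198 in OTX2-KO1 and 156, 167 and 153 in OE_LEUTX. IGF2BP2 and IGF2BP3 also overlapped wild type, through OE_LEUTX, with line shifts of -1.13, -0.89 and -0.07 and -1.37, -1.03 and -0.04. In both OTX2 lines these 2 genes were lower (limma adjusted p from 6.40e-09 to 3.97e-06). Other members of the list moved in both directions. In the order OTX2_OE, OTX2-KO1 and OE_LEUTX, the shifts were -1.50, 0.24 and 0.37 for MYC and -0.21, 0.30 and -0.97 for HMGA1. Those of ARID3B were 0.74, -0.16 and -0.29. LIN28B is itself a let-7 target. OTX2-KO1-1 was the lowest library for both HMGA2 and IGF2BP1, as for LIN28A. Of 2 connexin genes listed, GJC1 was below and GJA1 overlapped, at 16.1, 16.6 and 17.9 TPM in wild type, 14.5, 12.7 and 12.4 in OTX2_OE, 16.9, 18.5 and 24.3 in OTX2-KO1 and 22.9, 24 and 20.9 in OE_LEUTX.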
